A study of Mus musculus with 32 samples.

Results

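Heat shock proteins and chaperones, 10 genes in all, were followed through cisplatin-induced acute kidney injury (AKI) in mouse kidney. They were taken by gene name from the count table, which held all 10 of them among its 54532 genes. The set has 6 cytosolic members (Hspa1a, Hspa1b, Hspa8, Hsp90aa1, Hspb1 and Dnajb1), 2 mitochondrial members (Hspa9 and Hspd1) and 2 members of the endoplasmic reticulum, or ER (Hspa5 and Hsp90b1). Total kidney RNA had been sequenced from 32 wild-type (wt) C57bl/6 mice of 6 to 8 weeks, 1 library a mouse, in 8 groups of 4. Each sex had a Day 0 group and groups taken 2, 3 or 5 days after a single dose of cisplatin at 20 mg/kg. Cisplatin binds DNA and injures the renal tubule. The labels give no treatment (NA) for the Day 0 males and cisplatin for the Day 0 females, while the study describes Day 0 mice as healthy, and Day 0 was used here as the baseline of each sex. Each mouse was sampled on 1 day only, and the 3 comparisons within a sex share the same Day 0 mice.

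Chaperones bind unfolded or partly folded proteins, keep them from aggregating and help them reach their folded state. Hsp70 proteins work in cycles of ATP hydrolysis that J proteins such as Dnajb1 start, Hsp90 proteins act later on receptors and kinases, and small heat shock proteins hold unfolded proteins without using ATP. Heat shock factor 1 induces the cytosolic genes, and the unfolded protein response induces the ER genes. Proximal tubule cells, the main site of cisplatin uptake in the kidney, are rich in mitochondria, which have an Hsp70 (Hspa9) and a chaperonin (Hspd1, Hsp60, with its lid Hspe1) of their own.

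The libraries held between 16502107 and 35961325 counts. The share of counts on the mitochondrial genome ran from 4.49% to 24.0% at Day 0 to Day 3, but was 42.5% in one male at Day 5 and 78.9% to 79.8% in the other 3 males at Day 5, and up to 77.9% among the 4 females at Day 5. Counts outside the mitochondrial genome fell as low as 3780528 in a Day 5 male. Xist, the RNA of the inactive X chromosome, had 4153 counts in the library labelled male Day 5 mouse 1, which goes against that label. In the same library 4 Y-linked genes had 387 counts together. The other Day 5 males had 447 to 545, with fewer counts outside the mitochondrial genome. The sex signals of this library are thus mixed. The main results for Day 5 males are given with and without this library. Leaving it out leaves only the 3 Day 5 males with 78.9% to 79.8% of counts on the mitochondrial genome. Fits without it therefore change the label and this share together. Smaller mixed signals were seen in Day 0 female mouse 1 (221 Y-linked counts, against 0 to 66 in the other females) and in Day 0 male mouse 4 and Day 5 male mouse 2 (242 and 260 counts of Xist). Day 0 mouse 3 of both sexes stood apart from its group in like ways, with Hspe1 at 508 and 432 CPM, Pdia4 at 20.9 and 17.7, and Atf3 and Dnaja4 at 0 counts. The summed level of 7 proximal tubule markers, in CPM (counts scaled to library size), was 165 to 3715 in Day 5 males against 7010 to 10131 at Day 0, and no marker was at 0 in all mice of a group. Marker sums here and below were scaled to all counts of a library, mitochondrial genome included, without the scaling factors used for other CPM. A larger mitochondrial share by itself lowers such a sum. In bulk kidney RNA, fewer cells of a type and less RNA per cell cannot be told apart. Cdkn1a, the p53 target that halts the cell cycle, was higher than at Day 0 in males at Day 3 and Day 5 and in females on all 3 days (log2 fold changes of 3.09 to 4.32), and that call held for every mouse left out except in females at Day 3, where it was lost without any of 6 mice.

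On the scale of level per length (FPKM), the constitutive Hsp70 Hspa8 had the highest mean of the 10 in every group. In Day 0 males its level was 363 ± 46.4 FPKM (SD, n = 4), followed by Hspd1 at 190 ± 21.8 and Hspa9 at 132 ± 4.55. None of these 3 overlapped its neighbour in that order. Hsp90aa1 (89.9 ± 22.0), Hsp90b1 (74.1 ± 37.7) and Hspa5 (67.2 ± 20.6) came next, and their ranges overlapped. Hspb1 (26.4 ± 10.98), Dnajb1 (12.4 ± 1.88), Hspa1b (7.06 ± 2.49) and Hspa1a (3.75 ± 1.396) were lowest, and of these neighbours only Hspa1b and Hspa1a overlapped. Day 0 females had the same Hspa8, Hspd1 and Hspa9 at the top (418 ± 90.1, 137 ± 4.92 and 118 ± 21.9 FPKM), the last 2 with overlapping ranges. In Day 5 males, Hspb1 stood second at 172 ± 81.9 FPKM, its range of 52.8 to 230 overlapping that of Hspa8 (213 ± 10.5), while Hspd1 was at 63.3 ± 26.7. Hspa1b reached 42.4 ± 16.7 FPKM in that group.

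**Figure D1:**
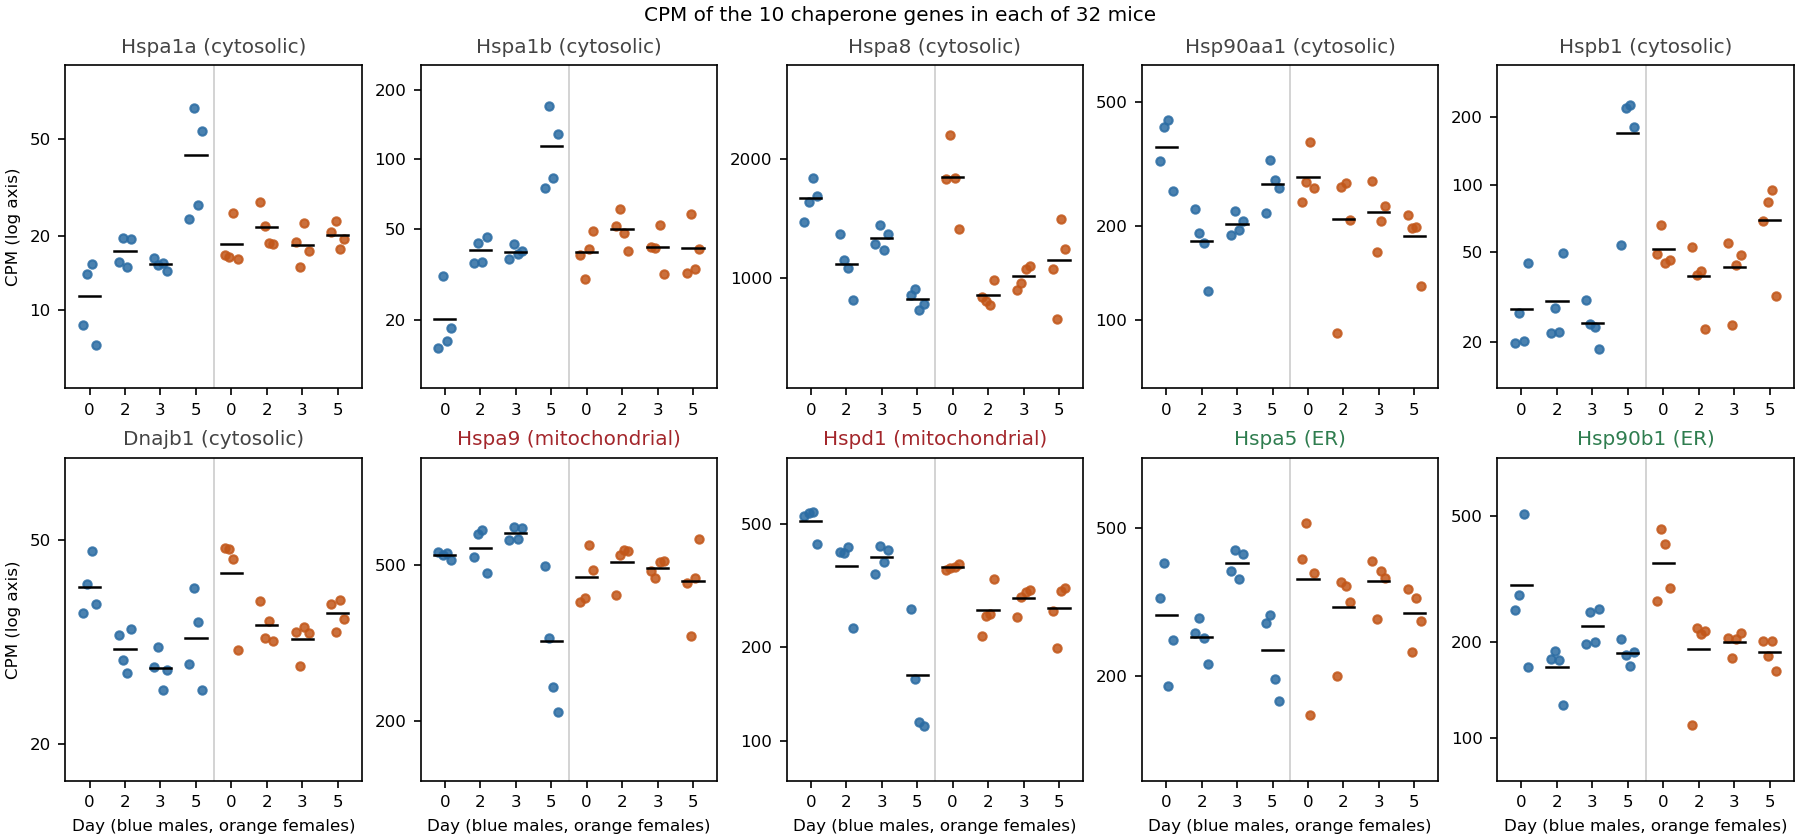
Level of each of the 10 genes in each of the 32 mice, in CPM on a log axis, by day within males (blue) and females (orange). Points are mice, and black bars are group means. Hspa1a, Hspa1b and Hspb1 stand above every Day 0 male at Day 5, and Hspd1 stands below them.

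Hspa1b and Hspa1a encode the inducible cytosolic Hsp70. Both are genes of 1 exon on the minus strand of chromosome 17 (GRCm38), Hspa1b from 34956436 to 34959238 and Hspa1a from 34969190 to 34972156. The windows from 250 bases before to 50 bases after their start sites (RefSeq, GRCm38.p6) are shown because both genes were higher in Day 5 males and differ in only 4 of 300 bases there. They cover chr17:34959189-34959488 and chr17:34972107-34972406, both on the minus strand. In the first line, capitals mark 2 inverted heat shock units (GAANNTTC). In the second line, capitals mark the bases that differ from the first.
Hspa1b: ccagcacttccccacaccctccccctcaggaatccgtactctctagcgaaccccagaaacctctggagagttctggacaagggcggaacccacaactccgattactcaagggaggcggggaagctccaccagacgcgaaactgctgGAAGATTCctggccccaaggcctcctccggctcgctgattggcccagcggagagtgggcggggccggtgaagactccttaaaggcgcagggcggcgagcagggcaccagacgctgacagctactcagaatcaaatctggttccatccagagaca
Hspa1a: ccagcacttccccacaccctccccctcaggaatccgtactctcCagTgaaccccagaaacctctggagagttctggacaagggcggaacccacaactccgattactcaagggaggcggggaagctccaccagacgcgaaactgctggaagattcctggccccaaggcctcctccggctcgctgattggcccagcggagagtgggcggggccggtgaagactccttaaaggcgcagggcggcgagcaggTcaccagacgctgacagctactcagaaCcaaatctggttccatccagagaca
GAANNTTC, which reads the same on both strands, was present in 7.86% of all 32841 RefSeq windows of this length, and the longer form with 3 units, GAANNTTCNNGAA, searched on both strands, was in neither window. Of the 100-base stretches of the Hspa1b transcript, 49.9% were also in Hspa1a, and 56.5% of those of Hspa1a were in other genes. How reads in such stretches were assigned is not given in the sources used here, so the split between the 2 genes is uncertain.

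Hspa1b was at 15.2, 31.0, 16.3 and 18.5 CPM in the 4 Day 0 males. It was at 35.6, 43.3, 35.8 and 45.8 CPM at Day 2 and at 36.9, 42.7, 38.9 and 40.0 at Day 3. At Day 5 it was at 75.1, 171, 82.8 and 129 CPM. Every treated male stood above every Day 0 male on all 3 days. The log2 fold change was 0.999 (SE 0.23, adjusted p = 0.053, quasi-likelihood test of edgeR with p-values adjusted by Benjamini-Hochberg) at Day 2 and 0.97 (SE 0.22, adjusted p = 0.019) at Day 3. It was 2.56 (SE 0.34, adjusted p = 0.0049) at Day 5, a 5.89-fold rise. The Day 3 call was lost when any 1 of the 4 Day 3 males was left out (adjusted p of 0.054 to 0.062), and the Day 5 call held for each mouse left out, with a log2 fold change of 2.73 without the library labelled male Day 5 mouse 1.

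Hspa1a went from 8.68, 14.0, 15.4 and 7.13 CPM in Day 0 males to 23.6, 67.0, 26.8 and 54.2 at Day 5. The groups did not overlap, and the log2 fold change was 1.97 (SE 0.40, adjusted p = 0.014), or 2.19 without the library labelled male Day 5 mouse 1. At Day 2 and Day 3 its log2 fold changes were 0.63 (SE 0.26, adjusted p = 0.15) and 0.43 (SE 0.24, adjusted p = 0.21), with overlapping groups, and the Day 3 value was 0.62 (adjusted p = 0.039) without Day 0 mouse 3. In female mice neither gene passed the test on any day. Female Hspa1b was at 38.5, 30.2, 40.7 and 48.7 CPM at Day 0, and at 32.2, 58.1, 33.3 and 40.6 at Day 5, for a log2 fold change of 0.06 (95% interval -0.49 to 0.61). The highest of these Day 5 females, mouse 2, was also the one with 77.9% of its counts on the mitochondrial genome. Female Hspa1a had log2 fold changes between -0.02 and 0.23. Day 0 females stood above Day 0 males in Hspa1a (16.1 to 24.8 CPM), though this difference did not pass the test (log2 male over female of -0.72, SE 0.30, adjusted p = 0.58).

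Hspb1 encodes Hsp25 (HSP27), a small heat shock protein that also binds actin, and lies on chromosome 5 from 135887919 to 135889563. Its start-site window is shown for the same heat shock units, capitals marking GAANNTTC, which it holds at 2 places (chr5:135887669-135887968, plus strand).
Hspb1: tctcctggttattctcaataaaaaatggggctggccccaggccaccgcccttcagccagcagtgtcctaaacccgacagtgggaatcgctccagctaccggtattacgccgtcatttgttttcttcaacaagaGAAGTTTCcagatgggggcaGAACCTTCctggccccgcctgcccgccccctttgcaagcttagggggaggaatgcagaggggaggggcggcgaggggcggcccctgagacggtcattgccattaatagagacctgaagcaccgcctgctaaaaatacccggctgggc
Hspb1 was at 19.7, 27.0, 20.1 and 44.7 CPM in Day 0 males and at 54.0, 220, 227 and 181 at Day 5. All 4 Day 5 males stood above Day 0, but the library labelled mouse 1 stood close to it. The log2 fold change was 2.69 (SE 0.47, adjusted p = 0.0098), a 6.44-fold rise, and 2.99 without that library. Day 2 and Day 3 males were at 21.8 to 49.4 and 18.6 to 30.8 CPM, overlapping Day 0. Female Hspb1 was at 44.8 to 66.0 CPM at Day 0 and at 68.8, 83.9, 94.4 and 31.8 at Day 5, where the log2 fold change of 0.44 (SE 0.31, adjusted p = 0.51) did not pass the test. Of the 100-base stretches of its transcript, 42.7% are also in an annotated pseudogene, Hsp25-ps1.

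Hspa8, the Hsp70 made in all cells, was at 1392 to 1797 CPM in Day 0 males and at 906, 941, 830 and 861 at Day 5. Every treated male, on each day, lay below every Day 0 male. The log2 fold changes of -0.54 (SE 0.19), -0.33 (SE 0.15) and -0.79 (SE 0.28) did not pass the test (adjusted p = 0.11, 0.13 and 0.072). Without the library labelled male Day 5 mouse 1 the Day 5 value was -0.78 (adjusted p = 0.053). In females it was at 1787, 2311, 1796 and 1336 CPM at Day 0 and at 897, 876, 852 and 989 at Day 2. The female log2 fold changes were -1.004 (SE 0.29, adjusted p = 0.074) at Day 2, -0.85 (SE 0.23, adjusted p = 0.054) at Day 3 and -0.71 (SE 0.32, adjusted p = 0.31) at Day 5. The female groups did not overlap at Day 2 and Day 3 and overlapped at Day 5. Of its transcript's 100-base stretches, 63.4% are shared with other annotated genes, as are 47.5% of those of Hsp90aa1, 26.9% of those of Hspd1 and 7.63% of those of Hsp90b1.

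Hsp90aa1, the stress-inducible cytosolic Hsp90, and Dnajb1, the J protein that stimulates Hsp70, fell in males at Day 3. Hsp90aa1 was at 325, 416, 439 and 260 CPM in Day 0 males and at 188, 223, 194 and 209 at Day 3 (log2 fold change -0.82, SE 0.18, adjusted p = 0.018). Dnajb1 was at 35.9, 41.0, 47.6 and 37.5 CPM at Day 0 and at 28.2, 30.9, 25.5 and 27.8 at Day 3 (log2 fold change -0.53, SE 0.13, adjusted p = 0.023). Neither gene's groups overlapped. At Day 2 both genes also lay below Day 0 in every male, at -0.99 (SE 0.24, adjusted p = 0.054) for Hsp90aa1 and -0.39 (SE 0.14, adjusted p = 0.12) for Dnajb1. Both Day 3 calls, like that of Hspa1b, were lost when any 1 of the Day 3 males was left out (adjusted p of 0.053 to 0.082). At Day 5 in males, both overlapped Day 0, at log2 fold changes of -0.34 (SE 0.27) and -0.27 (SE 0.20), or -0.23 and -0.20 without the library labelled mouse 1. In females, both had negative log2 fold changes on all 3 days (-0.40 to -0.63 for Hsp90aa1 and -0.26 to -0.44 for Dnajb1), and none passed the test.

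Of the mitochondrial members, Hspd1 fell in Day 5 males and Hspa9 did not pass the test. Hspd1 was at 531, 541, 545 and 430 CPM in Day 0 males, at 405, 402, 421 and 232 at Day 2 and at 345, 426, 377 and 414 at Day 3. At Day 5 it was at 266, 158, 115 and 111 CPM. Each treated male stood below all Day 0 males. It fell by 1.60 on the log2 scale at Day 5 (SE 0.32, adjusted p = 0.014, edgeR), to 0.330 of its Day 0 level, and its Day 2 and Day 3 values of -0.48 (SE 0.22, adjusted p = 0.18) and -0.39 (SE 0.14, adjusted p = 0.069) did not pass the test. Without the library labelled male Day 5 mouse 1 the Day 5 log2 fold change was -1.92, and without Day 5 mouse 2 the call was lost at a like value (-1.59, adjusted p = 0.052). In females Hspd1 was at 356, 361, 363 and 372 CPM at Day 0, above every treated female (200 to 332 CPM). Its female log2 fold changes were -0.46 (SE 0.23), -0.35 (SE 0.16) and -0.44 (SE 0.23), with adjusted p of 0.23, 0.16 and 0.38.

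Hspa9, mortalin, drives import into the mitochondrial matrix. It was at 539, 528, 535 and 512 CPM in Day 0 males, at 578, 623, 582 and 621 at Day 3, and at 496, 326, 244 and 212 at Day 5. All Day 3 males lay above Day 0 and all Day 5 males below it. Neither difference passed the test (log2 fold changes of 0.18, SE 0.12, adjusted p = 0.26, and -0.67, SE 0.30, adjusted p = 0.14). Without the library labelled male Day 5 mouse 1, the Day 5 value was -0.94 with an adjusted p of 0.019. Female Hspa9 overlapped Day 0 on every day, with log2 fold changes between -0.03 and 0.12. The 2 mitochondrial genes did not keep 1 ratio. Hspa9 counts over Hspd1 counts were 1.04 ± 0.10 (SD, n = 4) in Day 0 males and 1.57 ± 0.33, 1.55 ± 0.091 and 1.99 ± 0.13 at Day 2, Day 3 and Day 5. In females the ratio went from 1.28 ± 0.19 at Day 0 to 1.94 ± 0.22 at Day 2 and 1.72 ± 0.14 at Day 3. At Day 5 it was 1.69 ± 0.14 in females, with a range that overlapped Day 0.

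Hspd1 (chromosome 1, from 55077835 to 55088243, minus strand) stands head to head with the gene of its partner Hspe1 (from 55088132 to 55091307, plus strand), and the 2 gene models overlap by 112 bases. RefSeq gives Hspd1 2 start-site windows. The one at chr1:55087883-55088182 on the minus strand is shown because both genes were lower in Day 5 males and this window holds heat shock units, marked in capitals.
Hspd1: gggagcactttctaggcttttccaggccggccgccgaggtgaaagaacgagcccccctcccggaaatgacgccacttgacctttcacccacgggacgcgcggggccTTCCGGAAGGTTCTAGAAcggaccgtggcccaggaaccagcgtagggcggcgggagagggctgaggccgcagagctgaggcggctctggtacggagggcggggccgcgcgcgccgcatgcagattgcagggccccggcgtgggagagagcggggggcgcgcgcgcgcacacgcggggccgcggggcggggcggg
This window holds GAANNTTCNNGAA at 2 overlapping places, on opposite strands, a form found in 0.603% of all windows. The same bases lie in the Hspe1 window. The other Hspd1 window, from 55088194, holds none of these letters. Hspe1, the Hsp10 lid, was at 180, 198, 508 and 152 CPM in Day 0 males and at 86.2, 99.1, 73.7 and 92.4 at Day 5 (log2 fold change -1.52, SE 0.40, adjusted p = 0.029). Day 0 and Day 5 males did not overlap, though Day 0 mouse 3 stood far above the others, and the log2 fold change was -0.94 (adjusted p = 0.015) without it. Hspe1 also fell in males at Day 3 (-1.62, adjusted p = 0.021, or -1.05 without Day 0 mouse 3) and in females at Day 2 (-1.71, adjusted p = 0.047) and Day 3 (-1.59, adjusted p = 0.048). Each of these 4 calls was lost without any of 4 to 7 of the 8 mice compared, with the fold change below 0 each time. Hspe1 is short, at 1474 bases, and over all genes tested the median log2 fold change of genes of 1 to 2 kb lay between -0.49 and -0.20 in the 6 comparisons with Day 0, against 0.12 to 0.24 for genes over 4 kb. The part of gene length in the Hspe1 values was not tested. Hspb1, at 1031 bases, is the only member shorter than 2 kb, and the other 9 run from 2642 to 4301 bases.

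The share of counts on the mitochondrial genome is set beside 4 of these genes at Day 5. The 3 Day 5 males with 78.9% to 79.8% held the 3 highest Hspb1 levels and the 3 lowest Hspd1 and Hspa9 levels of their group. The Day 5 female with 77.9% had the lowest Hspd1 and Hspa9 and the highest Hspa1b of the Day 5 females (200, 329 and 58.1 CPM), but its Hspb1 of 83.9 CPM was below the 94.4 CPM of mouse 3, which had 22.2%. Among the other 3 Day 5 females, Hspa1b was highest in the one with the lowest share, 9.30%. The part of this share in the results was not tested. Leaving the genes of the mitochondrial genome out of the fit gave log2 fold changes at Day 5 in males of 2.54 for Hspa1b, 2.65 for Hspb1 and -1.62 for Hspd1. There 4 members were called, against 18.3% of all genes, as with those genes kept, where 19.2% were. The scaling of the main fit already allows for such a share, so this fit does not test its part.

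**Figure D2:**
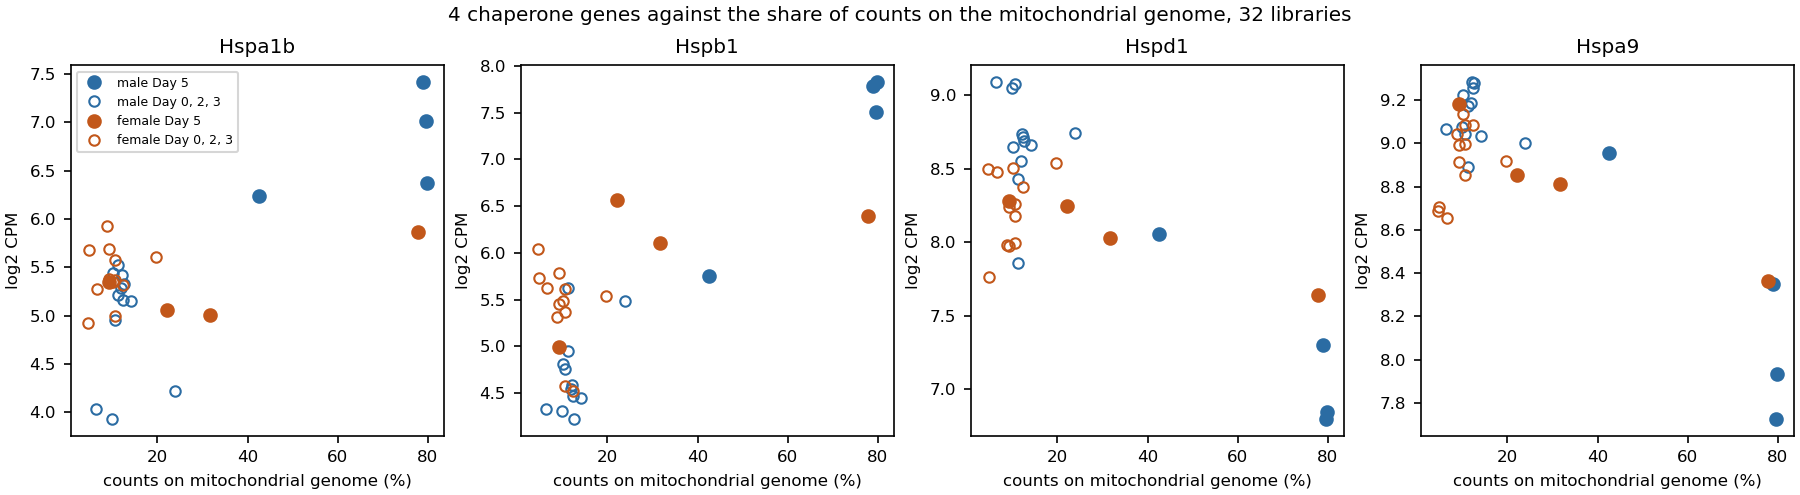
Log2 CPM of Hspa1b, Hspb1, Hspd1 and Hspa9 against the percentage of counts on the mitochondrial genome in each of 32 libraries. Filled points are Day 5 and open points Day 0, Day 2 and Day 3, blue for males and orange for females. The libraries between 77.9% and 79.8% hold the lowest Hspd1 and Hspa9 levels.

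The ER members passed the test in no comparison. Hspa5 (BiP, GRP78) is the ER Hsp70 and the usual marker of the unfolded protein response, and Hsp90b1 (GRP94) is the ER Hsp90. Their start-site windows are shown because the ER stress response element, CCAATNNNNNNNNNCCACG, stands in capitals once in Hspa5 and at 2 places, on opposite strands, in Hsp90b1. Searched on both strands, it was in 39 of 32841 windows (0.119%). The windows are chr2:34771840-34772139 on the plus strand and chr10:86705395-86705694 on the minus strand.
Hspa5: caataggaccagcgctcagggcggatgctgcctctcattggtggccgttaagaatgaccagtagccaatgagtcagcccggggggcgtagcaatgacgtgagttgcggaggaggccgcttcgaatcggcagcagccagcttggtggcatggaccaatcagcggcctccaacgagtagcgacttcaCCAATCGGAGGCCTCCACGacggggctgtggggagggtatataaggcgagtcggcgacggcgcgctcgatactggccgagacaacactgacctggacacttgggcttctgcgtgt
Hsp90b1: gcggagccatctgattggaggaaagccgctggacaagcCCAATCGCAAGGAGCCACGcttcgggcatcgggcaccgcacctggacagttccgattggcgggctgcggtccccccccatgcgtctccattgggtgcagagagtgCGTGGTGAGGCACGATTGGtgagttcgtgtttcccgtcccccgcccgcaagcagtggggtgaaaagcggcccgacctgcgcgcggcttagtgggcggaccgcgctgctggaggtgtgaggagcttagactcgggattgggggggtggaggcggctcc
Hspa5 was at 325, 403, 188 and 250 CPM in Day 0 males, at 384, 438, 365 and 426 at Day 3 and at 278, 292, 196 and 171 at Day 5. The groups overlapped on each day. Its male log2 fold changes were -0.18 (95% interval -0.71 to 0.34) at Day 2, 0.47 (-0.03 to 0.98, adjusted p = 0.15) at Day 3 and -0.25 (-0.93 to 0.42) at Day 5, or -0.33 without the library labelled mouse 1. Female Hspa5 varied most at Day 0 (413, 516, 156 and 378 CPM), and its log2 fold changes were -0.26, -0.04 and -0.31, with intervals that include 0. Without Day 0 mouse 3 of the same sex, which had the lowest Hspa5 of its group, the 3 values were -0.49, -0.29 and -0.55 in females and -0.36, 0.31 and -0.41 in males, none called. Hsp90b1 was at 253, 283, 510 and 167 CPM in Day 0 males and at 205, 183, 169 and 187 at Day 5. Its male log2 fold changes were -0.85 (SE 0.32), -0.43 (SE 0.31) and -0.66 (SE 0.34), with adjusted p of 0.12, 0.32 and 0.19. The Day 5 value was -0.68 without that library, and the 3 values were -0.49, -0.05 and -0.27 without Day 0 mouse 3. In females Hsp90b1 was at 269, 456, 408 and 297 CPM at Day 0 and at 206, 179, 206 and 214 at Day 3, and treated females lay below Day 0 on each day. The female log2 fold changes were -0.91 (SE 0.30, adjusted p = 0.099), -0.84 (SE 0.21, adjusted p = 0.0505) and -0.93 (SE 0.25, adjusted p = 0.16). Day 0 female mouse 2, which had the highest Hspa5 and Hsp90b1, also held 11226 CPM over 6 hepatocyte markers, against 64.7 CPM in the lowest Day 0 female. Whether liver RNA had a part in its ER chaperone levels was not tested.

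**Figure D3:**
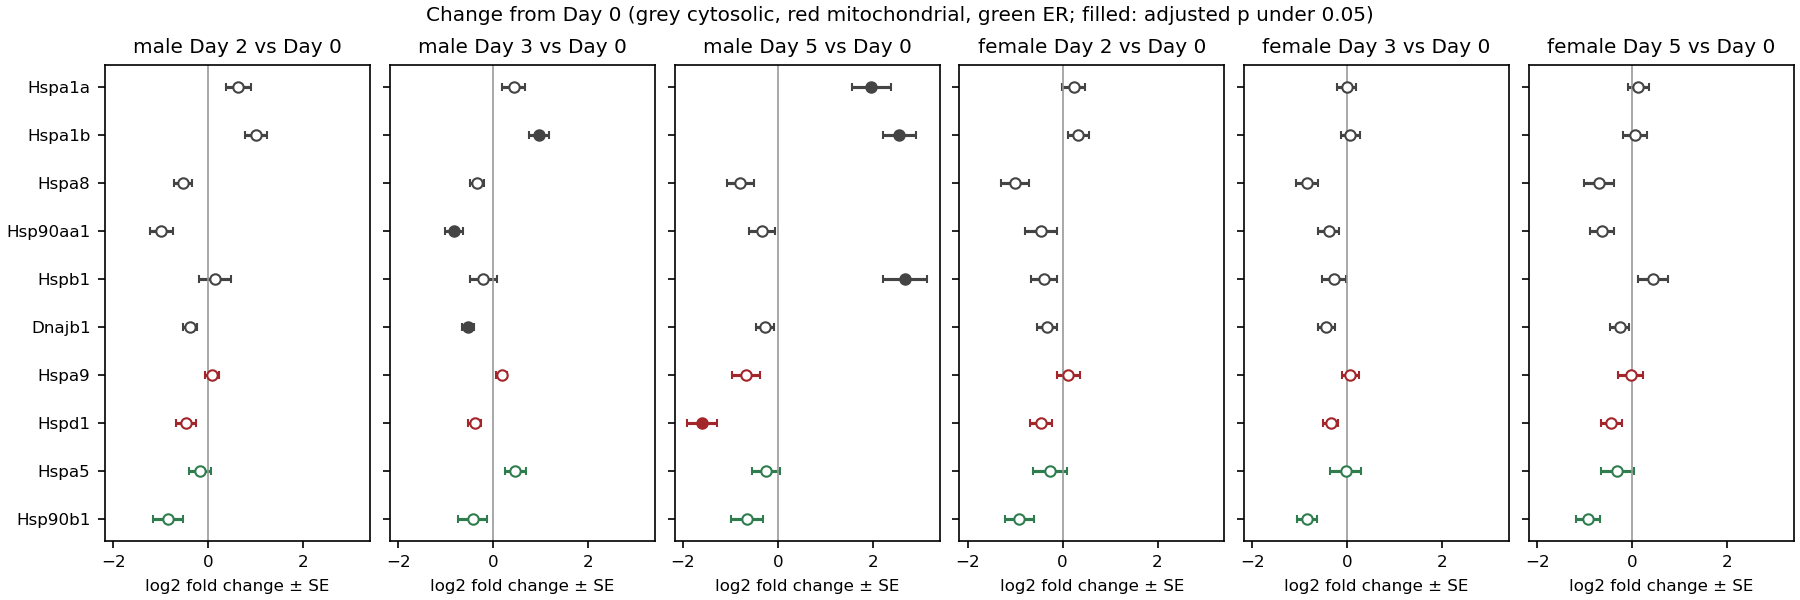
Log2 fold change of each member from Day 0 with its standard error, for males and females at Day 2, Day 3 and Day 5. Grey points are cytosolic, red mitochondrial and green ER genes, and filled points had an adjusted p under 0.05. Filled points occur in males at Day 3 (3 genes, where 24.5% of all genes were called) and Day 5 (4 genes, where 19.2% were).

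By compartment, called members were counted against the share of all genes called. In males at Day 2, 0 of 10 members were called (3.16% of all 16051 genes tested were), with 6 of 10 at an unadjusted p under 0.05, against 29.0% of all genes, and 3 called by DESeq2, against 16.3%. At Day 3, 1 cytosolic member was higher and 2 were lower, and none of the mitochondrial or ER members was called, against 24.5% of all genes. At Day 5, 3 cytosolic members were higher, 1 mitochondrial member was lower and no ER member was called, against 19.2% of all genes. Leaving out the library labelled mouse 1, Hspa9 was also called, against 26.0% of all genes. All 4 also had an absolute log2 fold change over 1.5, and 7.53% of all genes were called with such a size. That size is the study's for a DEG, read here as log2 since no base is named, and applied to edgeR in place of DESeq2. Groups did not overlap for 5, 6 and 6 of the 10 members at Day 2, Day 3 and Day 5 in males, against 24.4%, 38.3% and 27.3% of all genes. In females 0 of 10 members were called on each day by edgeR (1.93%, 5.54% and 0.258% of all genes at Day 2, Day 3 and Day 5). There, 2, 3 and 3 members had an unadjusted p under 0.05, against 25.3%, 30.7% and 15.7% of all genes. DESeq2 called 2, 2 and 1 members, against 11.1%, 17.5% and 3.95% of all genes. Female groups did not overlap for 3 members on each day, all lower than Day 0, against 15.3%, 19.3% and 8.6% of all genes.

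The median log2 fold change in Day 5 males was 0.85 over the 6 cytosolic members, -1.14 over the 2 mitochondrial and -0.45 over the 2 ER members, beside 0.04 over all genes tested. These medians were 0.996, -1.43 and -0.50 without the library labelled mouse 1. The cytosolic median joins values from -0.79 (Hspa8) to 2.69 (Hspb1), so these genes did not move as 1 group. In Day 5 females the 3 medians were -0.10, -0.23 and -0.62, beside 0.03. As a balance within each mouse, the mean log2 CPM of the cytosolic members minus that of the mitochondrial members was -2.87 ± 0.21 (SD, n = 4) in Day 0 males and -0.73 ± 0.86 in Day 5 males. The library labelled mouse 1 was at -2.01 and the other 3 Day 5 males lay between -0.41 and -0.14. In females this balance was -2.09 ± 0.16 at Day 0, above every Day 0 male, and -2.02 ± 0.44 at Day 5, with overlapping groups. ER minus mitochondrial was -0.89 ± 0.23 in Day 0 males, -1.11 ± 0.11 at Day 2, -0.69 ± 0.075 at Day 3 and -0.06 ± 0.37 at Day 5. At Day 5 the library labelled mouse 1 was at -0.61 and the other 3 males lay between 0.03 and 0.22. In females it was -0.26 ± 0.48 at Day 0 and -0.56 ± 0.30 at Day 5, overlapping. When FPKM were summed in place of averaging logs, which weights Hspa8 most, the male Day 5 change of the cytosolic balance was 1.24 in place of 2.15, and those at Day 2 and Day 3 turned from positive (0.21 and 0.06) to negative (-0.27 and -0.24).

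**Figure D4:**
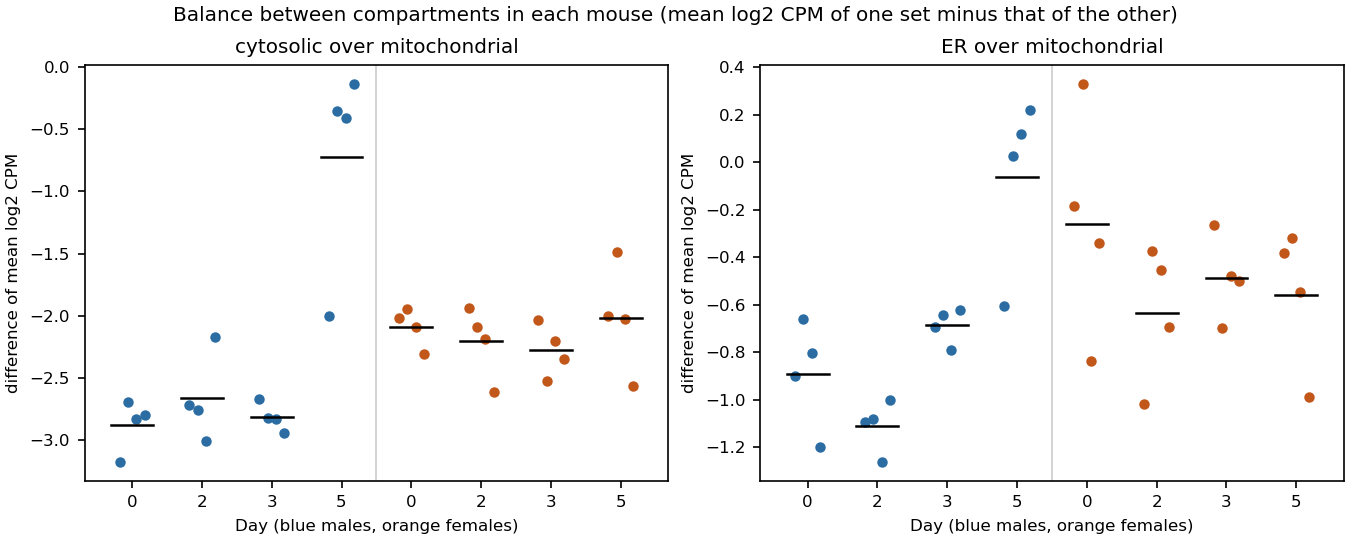
Mean log2 CPM of the cytosolic (left) and ER (right) members minus that of the mitochondrial members in each mouse, by day within males (blue) and females (orange), with group means as black bars. On the left, Day 5 males other than mouse 1 stand above all other mice, between -0.41 and -0.14.

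Male and female mice were also compared on the same day. At Day 0, Day 2 and Day 5, 0 of 10 members were called (0.449%, 1.47% and 0.276% of all genes), with 4, 0 and 5 at an unadjusted p under 0.05 (8.04%, 15.0% and 20.3% of all genes) and 0, 0 and 3 called by DESeq2 (2.18%, 4.09% and 5.95%). At Day 3, 4 members were called, against 21.3% of all genes. Hspd1 (log2 male over female 0.41, SE 0.097, adjusted p = 0.016), Hspa9 (0.26, SE 0.075, adjusted p = 0.035) and Hspa8 (0.29, SE 0.088, adjusted p = 0.040) were higher in males, and their groups did not overlap, as in 25.7% of all genes. Hspb1 was lower in males (-0.86, SE 0.26, adjusted p = 0.049), with overlapping groups. A single fit over all 8 groups called none of the 4. The Hspd1 call was lost without male mouse 2 or 4 of that day (0.37 and 0.38, adjusted p = 0.060 and 0.054), those of Hspa8 and Hspa9 without any of 6 of the 8 mice, and that of Hspb1 without any of 7. At Day 5, Hspa1b was at 75.1 to 171 CPM in males and 32.2 to 58.1 in females (log2 difference 1.53, SE 0.31, adjusted p = 0.074). Without the library labelled male Day 5 mouse 1, 5 members were called in that comparison, where 17.0% of all genes were: Hspa1b (1.75, adjusted p = 0.0017), Hspa1a (1.402), Hspb1 (1.69), Hsp90aa1 (0.76) and, lower in males, Hspd1 (-0.96).

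The difference between the sexes in the change from Day 0 was tested directly. At Day 2 no member and no gene was called (0% of 17467), with 0 members at an unadjusted p under 0.05 (4.23% of all genes). At Day 3 no member was called (0.0114% of all genes), with 1 at an unadjusted p under 0.05 (7.11% of all genes). At Day 5 only Hspa1b was called, against 0.243% of all genes. Its change in males exceeded that in females by 2.49 on the log2 scale (SE 0.42, adjusted p = 0.021). Male over female, its log2 difference was -0.98 at Day 0 (SE 0.27, adjusted p = 0.25), with overlapping groups, beside the 1.53 at Day 5 given above. The call was lost, at adjusted p of 0.051 to 0.080, when the mouse left out was number 1 of the Day 0 males, 2, 3 or 4 of the Day 5 males, 2 of the Day 0 females, or 1, 3 or 4 of the Day 5 females. The size stayed between 2.25 and 2.77 for each of the 16 mice left out. Without the library labelled male Day 5 mouse 1, 4 members were called, against 6.74% of all genes in that fit: Hspa1b (2.65), Hspa1a (2.04), Hspb1 (2.52) and Hspd1 (-1.52). With it, Hspa1a stood at 1.84 (SE 0.46, adjusted p = 0.098), Hspb1 at 2.23 (SE 0.58, adjusted p = 0.10) and Hspd1 at -1.18 (SE 0.37, adjusted p = 0.15). The ER members had differences of 0.03 and 0.27. The Day 5 groups also differed in the share of counts on the mitochondrial genome, with medians of 79.3% in males and 26.9% in females. Sex and this share cannot be told apart at Day 5.

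The rest of the chaperone network was read from lists holding 122 genes other than the members, of which 119 were in the table. In males, 0 were called higher and 6 lower at Day 2, 2 higher and 28 lower at Day 3, and 6 higher and 20 lower at Day 5. In females the counts were 2 and 3, 3 and 12, and 1 and 0. In males at Day 2 these were 6 of 116 tested, all lower, beside 3.16% of all genes called in either direction, 1.35% lower and 1.81% higher. In males at Day 3 and Day 5 they were 30 of 116 and 26 of 114 tested, beside the 24.5% and 19.2% of all genes called in either direction. Called lower were 28 of 116 at Day 3 and 20 of 114 at Day 5, where 13.1% and 10.2% of all genes were, and called higher 2 of 116 and 6 of 114, where 11.4% and 8.98% were. The counts of females were 5 of 117, 15 of 116 and 1 of 115, beside 1.93%, 5.54% and 0.258%. These counts moved with single mice: with 1 mouse left out, 6 to 35 list genes were called in Day 5 males, 3 to 53 in Day 3 males and 0 to 61 in Day 3 females. Over all comparisons, the count over all genes also moved in 91 such fits and stayed much the same in 37. The ranges are thus not particular to the lists. In Day 3 females, Cdkn1a, Fkbp5, Fkbp4, Ahsa1, Hspe1 and Cryab had the same highest adjusted p in such fits (0.168, edgeR), a tie of the adjustment over all genes. Among the cytosolic Hsp70 and Hsp110 genes at Day 5 in males, 2 of 7 tested were higher, among them Hsph1, the Hsp110 that exchanges nucleotide on Hsp70 (125, 322, 115 and 216 CPM against 82.8 to 105 at Day 0, log2 fold change 1.09, adjusted p = 0.049), a call lost without any of 7 of the 8 mice and without the mitochondrial-genome genes. Of 6 small heat shock proteins tested, 2 were higher. Cryab, alpha-B crystallin, went from 127, 202, 208 and 139 CPM at Day 0 to 380, 1890, 918 and 1290 at Day 5 in males (log2 fold change 2.79, SE 0.49, adjusted p = 0.010, called with each mouse left out, and 3.09 without the library labelled mouse 1). It had been lower than Day 0 at Day 3 in males (-0.62, adjusted p = 0.040) and females (-0.79, adjusted p = 0.048), calls lost without any of 5 and of 7 of the 8 mice. Bag3, a cochaperone induced by heat shock factor 1, had log2 fold changes between -0.10 and 0.14 in males, none of which passed the test. Hsp90ab1, the constitutive Hsp90, was at 584 to 620 CPM in Day 5 males, below 3 of the 4 Day 0 males (892, 1026 and 982) and above the other (541), and did not pass the test (-0.45, SE 0.28, adjusted p = 0.29). Hsf1 itself overlapped zero change (-0.05, SE 0.20), and of 4 heat shock factors tested only Hsf2, named after its value was seen, was higher (0.66, adjusted p = 0.049), which was lost without any of 6 mice, without the mitochondrial-genome genes and without the filter on low counts.

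Of 17 mitochondrial chaperones and proteases, 0 were higher and 7 lower in Day 5 males, with a median log2 fold change of -0.73, beside 10.2% of all genes called lower and a median of 0.04. In the fit without the library labelled mouse 1, where 26.0% of all genes were called in either direction in place of 19.2%, 9 of 17 were lower (median -0.90). Trap1, the mitochondrial Hsp90 (-0.97, adjusted p = 0.034), Grpel1, the nucleotide exchange factor of Hspa9 (-0.99, adjusted p = 0.037), and Dnaja3, its J protein (-0.80, adjusted p = 0.026), were among the 7. The protease Lonp1 did not pass the test (-0.47, SE 0.22, adjusted p = 0.15). Of 25 ER chaperones and folding enzymes, 0 were higher and 6 lower, with a median of -0.54, and 9 were lower in that same fit with more calls overall (median -0.55). With 1 mouse left out, 1 to 9 of the mitochondrial list and 1 to 11 of the ER list were lower in Day 5 males. Among the 6 of the ER list were P4hb, the protein disulfide isomerase (-0.97, adjusted p = 0.037), and Dnajb11, a J protein of Hspa5 (-0.84, adjusted p = 0.028). Dnajb9, a J protein induced by the unfolded protein response, stood at -0.25 (SE 0.21). The calls of Trap1, Grpel1, Dnaja3, P4hb and Dnajb11 were each lost without any of Day 0 males 1 and 2 and Day 5 males 2, 3 and 4, with adjusted p up to 0.11. Of 13 genes of ER stress and ER-associated degradation, 0 were higher and 2 lower, or 1 and 3 without that library. Ddit3 (CHOP) stood at 1.09 (SE 0.35, adjusted p = 0.054), or 1.32 (adjusted p = 0.014) without that library, and Xbp1, a transcription factor of the unfolded protein response, at 0.11 (SE 0.21). Atf4, the transcription factor of the integrated stress response, was lower at Day 2 (-0.83, adjusted p = 0.035, lost without any of 6 mice) and Day 3 (-0.75, adjusted p = 0.0092, called with each mouse left out). In Day 5 males the summed markers of several kidney cell types had lower medians than at Day 0: proximal tubule (258 against 8522 CPM), thick limb (299 against 1698), distal convoluted tubule (240 against 474), collecting duct (503 against 702), podocyte (59.2 against 249) and endothelium (112 against 205). Of these, only the proximal tubule range did not overlap Day 0. Their part in the mitochondrial and ER counts was not tested.

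**Figure D5:**
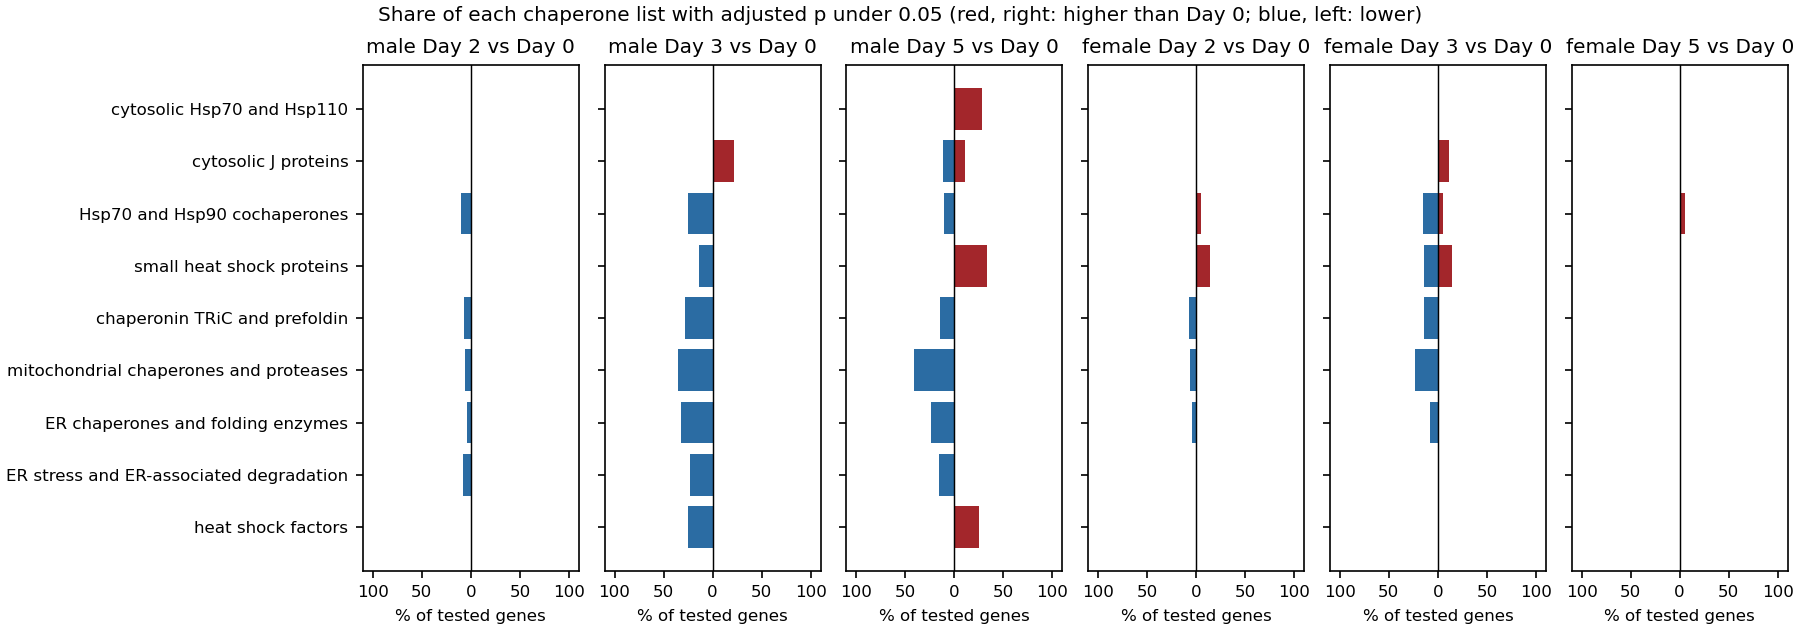
Percentage of the tested genes of each chaperone list with an adjusted p under 0.05, higher (red, right) or lower (blue, left) than Day 0, in 6 comparisons. In Day 5 males 7 of 17 mitochondrial genes were lower, and none was higher, beside 10.2% of all genes called lower and 8.98% called higher.

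Of 19 to 20 Hsp70 and Hsp90 cochaperones tested, 2, 5 and 2 were lower at Day 2, Day 3 and Day 5 in males (1.35%, 13.1% and 10.2% of all genes) and 0, 3 and 0 in females (1.16%, 4.28% and 0.0738%), and 1 was higher, in females on each day. Fkbp5, an Hsp90 cochaperone induced by glucocorticoids, was at 39.2, 28.0, 19.8 and 22.9 CPM in Day 0 females and at 233, 82.0, 191 and 179 at Day 5. Every treated female stood above Day 0. Its female log2 fold changes were 2.28 (adjusted p = 0.013), 2.56 (adjusted p = 0.0465) and 2.63 (adjusted p = 0.014), lost without any of 4, 6 and 2 of the 8 mice, and in males they were 0.53, 0.82 and 0.62, none of which passed the test. Summed adrenal cortex markers were at 26.1 to 2050 CPM in Day 3 females and 139 to 1267 in Day 5 females, against 3.73 to 237 at Day 0 and 2.98 to 6.37 at Day 2. Their part in the Fkbp5 values was not tested. Fkbp4 fell in males on all 3 days (-0.79 to -0.92, adjusted p of 0.0080 to 0.040) and in females at Day 3 (-1.19, adjusted p = 0.0465). Ahsa1, the activator of the Hsp90 ATPase, fell in males at Day 2 and Day 3 (both -0.69, adjusted p = 0.043 and 0.0096) and in females at Day 3 (-0.88, adjusted p = 0.047). Stip1, which bridges Hsp70 and Hsp90, fell in males at Day 3 (-0.48, adjusted p = 0.019). For Fkbp4 and Ahsa1 the male Day 3 calls held with each mouse left out, and every other call of these 3 genes was lost without any of 4 to 7 of the 8 mice. Of the 15 immediate early genes listed, which respond to stress and to tissue handling, 8 of 15 were higher in males at Day 2, 12 of 15 at Day 3 and 13 of 14 tested at Day 5 (12 without the library labelled mouse 1), beside 1.81%, 11.4% and 8.98% of all genes called higher. In females 0 were called on any day, with 11, 10 and 14 of 15 above 0 and medians of 0.31, 0.54 and 0.70, where 0.774%, 1.26% and 0.185% of all genes were called higher. At Day 0, 13 of 14 were lower in males than in females (median -1.14), 0 of them called. Fos was higher by 2.50 on the log2 scale in Day 2 males (adjusted p = 0.035, lost without any of 6 of the 8 mice) and by 3.36 in Day 5 males (adjusted p = 0.0054, called with each mouse left out). With 1 mouse left out, the genes of this list called higher numbered 0 to 11, 8 to 13 and 7 to 13 at Day 2, Day 3 and Day 5 in males, and 0 to 7, 0 to 5 and 0 to 7 in females. The part of handling was not tested.

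Pearson correlations of log2 CPM over the 32 libraries, which share groups and depth, are given as descriptions. Hspa1a and Hspa1b had r = 0.89, and r = 0.64 for deviations from group means. The 2 mitochondrial members had r = 0.83 (0.84 for deviations) and the 2 ER members r = 0.23 (0.12). Hspb1 had r = -0.85 with Hspd1 and -0.86 with Hspa9 (-0.77 and -0.65 for deviations), and Hsp90b1 was nearer to Hsp90aa1 (0.74) than to Hspa5. Of protein-coding genes, those most alike were Slco4a1 (0.92), Rhpn2 (0.89) and Slc22a15 (0.89) for Hspa1b, Krt18 (0.96), Nbl1 (0.94) and Anxa2 (0.94) for Hspb1, and Tars (0.76), Ccdc78 (0.71) and Skap2 (0.69) for Hspa5.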

How the data were processed

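Kidney RNA of 32 mice was read from the authors' table of raw counts per gene, deposited with gene coordinates, and from the FPKM the authors deposited for the same libraries, counts divided by gene length (kb) and effective library size. The study states paired-end reads aligned to GRCm38, and 98.3% of shared gene IDs had the GRCm38 coordinates of GENCODE M21, while the submitters' processing notes list GRCm39, HTSeq and DESeq2. Strand settings and the handling of reads with several matches are not given in the sources used here. The 10 members and all lists were chosen with earlier results of these data known. Counts were tested in edgeR 4.0.16 (R 4.3.3) with TMM factors, filterByExpr and the quasi-likelihood test, two-sided, with Benjamini-Hochberg adjustment over all genes tested, each comparison on its own groups. A gene was called at an adjusted p under 0.05. CPM other than the marker sums used TMM factors over 32 libraries, and log2 CPM a prior count of 2. Marker sums were scaled to all counts of a library without TMM factors, so they are not on the same scale as the other CPM. Named genes were the 10 members, preset genes of the lists, and the 3 genes most correlated with each of 4 members, of which those for Hspd1 are not reported here. Alternatives were DESeq2 1.42.0, its size factors, 2 other filters, 1 fit over 8 groups, a block for the mouse number, limma 3.58.1 voom with quality weights, leaving out mitochondrial-genome genes, and leaving out each mouse. The tests were checked on simulated data. Promoter windows came from RefSeq (GRCm38.p6), which had windows for 7 members. Protein sequences were not used here.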

Additional observations from a re-analysis of the deposited data

Results flagged for a closer look

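Of the 80 sets of 4 mice, 1 for each member and group, 8 held a mouse whose gap to its nearest neighbour, divided by the whole range of log2 CPM, was above Dixon's critical value for 4 samples. Chance flags about 5% of such sets. These were Hspa1a in Day 0 females (highest in mouse 3, 0.916), Hspb1 in Day 5 males (lowest in the library labelled mouse 1, 0.844), Dnajb1 in Day 0 females (lowest in mouse 4, 0.895), Dnajb1 in Day 3 females (lowest in mouse 2, 0.844), Hspa9 in Day 2 females (lowest in mouse 1, 0.888), Hspd1 in Day 0 males (lowest in mouse 4, 0.886), Hspd1 in Day 2 males (lowest in mouse 4, 0.925) and Hsp90b1 in Day 2 females (lowest in mouse 1, 0.940). Female Day 2 mouse 1 was also the lowest of its group in Hsp90aa1 and Hspa5 (90.5 and 200 CPM).

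The change of Hspa1b from Day 0 to Day 5 differed between the sexes by 2.49 on the log2 scale, by the test of the interaction itself. At Day 5 the median share of counts on the mitochondrial genome was 79.3% in males and 26.9% in females. Sex and this share cannot be told apart there, and the library labelled male Day 5 mouse 1 had mixed sex signals. No explanation was tested.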

How the results depend on the processing

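Members called under each alternative are given beside the number reported. Most fits with 1 mouse left out are given without their share of all genes. The count over all genes also moved in 91 such fits and stayed much the same in 37. A change in members called there cannot be told from a change over all genes. In males at Day 2 (reported 0) they were 3 by DESeq2, 1 without a filter (1.13% of all genes), 1 with at least 10 counts in every library (5.45%), 8 by voom with quality weights (46.4%), 3 in 1 fit over 8 groups (12.9%) and 0 to 3 with 1 mouse left out (3 without Day 0 mouse 4). In males at Day 3 (3) they were 6 by DESeq2 (27.4%), 7 by voom (57.1%), 0 with the replicate block (0.566%) and 0 to 5 with 1 mouse left out. In males at Day 5 (4) they were 7 by voom (54.8%), 7 in 1 fit (31.1%) and 3 to 5 with 1 mouse left out (5 without the library labelled male Day 5 mouse 1, where 26.0% of all genes were called). In females (0) DESeq2 called 2, 2 and 1, voom 6, 3 and 2 (50%, 47.8% and 18.9% of all genes), 1 fit 2, 3 and 2 (21.8%, 23.4% and 10.9%) at Day 2, Day 3 and Day 5, the filter of 10 counts called 2 at Day 3 (12.2%), and leaving out 1 mouse gave 0 to 2, 0 to 3 and 0 to 1, the highest each time without Day 0 mouse 4. Between the sexes, voom called 2, 2 and 5 at Day 0, Day 2 and Day 5 (reported 0 each, with 25.2%, 19.0% and 29.7% of all genes called by voom), 1 fit 1 at Day 0 (3.22%) and 4 at Day 5 (9.69%), DESeq2 3 at Day 5, and no filter 1 at Day 5 (1.29%). At Day 3 (4), no filter (9.89%) and the replicate block (17.6%) left 1 each, 1 fit 0 (0.988%), and leaving out 1 mouse 0 to 6. At Day 5, leaving out 1 mouse gave 0 to 5. For the difference in response, voom called 2, 1 and 5 at Day 2, Day 3 and Day 5 (reported 0, 0 and 1, with 11.2%, 12% and 32.5% of all genes called by voom), DESeq2 and 1 fit 4 each at Day 5 (3.96% and 7.55%), and leaving out 1 mouse gave 0 to 4.

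In none of the 10 comparisons of 2 groups did all 4 same-numbered pairs deviate together (correlations of -0.57 to 0.61, median -0.02, over 40 pairs), so the block was not used. Between the sexes at Day 0, however, mice 1, 3 and 4 did (0.43, 0.58 and 0.61) and mouse 2 did not (-0.16), and there the block called 210 genes in place of 72, with 0 members in either fit. Over all genes, calls against Day 0 in males moved from 507 to 2869 (DESeq2), 7446 (voom), 2347 (1 fit) and 5 (block) at Day 2, from 3901 to 9081 (voom) and 90 (block) at Day 3, and from 2878 to 8197 (voom) and 5666 (1 fit) at Day 5. Genes of the lists called ranged from 0 (block) to 62 (voom) in males at Day 2 (reported 6), from 0 (block) to 78 (voom) at Day 3 (30), and from 16 (block) to 66 (voom) at Day 5 (26). In females all-gene calls moved from 320 to 52 (block) and 8269 (voom) at Day 2, from 945 to 0 (block) and 8152 (voom) at Day 3, and from 42 to 3070 (voom) at Day 5. No called member reversed its sign under any alternative run. The causes were not tested. Day 5 males, with as few as 3780528 counts outside the mitochondrial genome, gave the least depth.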
